A study of Homo sapiens with 5 samples.

Results

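This account describes 10 genes that write, maintain, erase or repair DNA methylation: the DNA methyltransferase genes DNMT1, DNMT3A, DNMT3B and DNMT3L, the UHRF genes UHRF1 and UHRF2, the TET genes TET1, TET2 and TET3, and the DNA glycosylase gene TDG. They were chosen by name and not by a cut on their values, though earlier results of these data were known. Each had 1 entry among the 20220 usable entries of the RefSeq gene table. The RNA came from HEK 293T, a human embryonic kidney line with the large T antigen of SV40. Its groups were cells given 1.0 µM 5-aza-CdR for 3 days (2 libraries, called treated), cells that had the same exposure and were then cultured without it for 30 days (1 library, called recovery), and cells that never had the drug (2 libraries, called control). 5-aza-CdR (5-aza-2'-deoxycytidine, decitabine) is a cytidine analogue that enters DNA and traps methyltransferase protein on it. All groups are the same line in daily renewed medium, and the labels do not say on which day the control cells were collected. The authors deposited 1 value per gene and group in FPKM, which counts fragments scaled to transcript length and to sequencing depth. No library has a value of its own, so there is no replicate spread, and no SD or n of these values can be given.

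DNA methylation in human cells sits mostly on the cytosine of CpG dinucleotides. DNMT1 copies the pattern onto the new strand after replication, and UHRF1 recognises half-methylated DNA and brings DNMT1 to it. UHRF2 is its close relative. DNMT3A and DNMT3B place methyl groups at new sites, with DNMT3L as a cofactor that has no catalytic activity and is known mainly from germ cells. The TET enzymes oxidise 5-methylcytosine, and TDG cuts out the most oxidised forms so that base excision repair can put back a plain cytosine. In DNMT1, 5-aza-CdR is known to act on the protein, which becomes bound to DNA and is degraded, so the RNA measured here need not follow the protein.

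The promoters of the members differ in how many CpG sites they hold. Whether these sites were methylated in these cells is not known from the values used here. RefSeq promoter windows (GRCh38.p14, 250 bases before to 50 after a transcript start) were found for 9 of the 10 genes. The 3 genes with a single window that begins at the outermost RefSeq start of the gene are shown, 5′ to 3′ on the gene's own strand, with each CpG in capitals. The windows are DNMT1 at chr19:10194904-10195203 (minus strand), UHRF2 at chr9:6412949-6413248 (plus strand) and TDG at chr12:103965622-103965921 (plus strand).
DNMT1: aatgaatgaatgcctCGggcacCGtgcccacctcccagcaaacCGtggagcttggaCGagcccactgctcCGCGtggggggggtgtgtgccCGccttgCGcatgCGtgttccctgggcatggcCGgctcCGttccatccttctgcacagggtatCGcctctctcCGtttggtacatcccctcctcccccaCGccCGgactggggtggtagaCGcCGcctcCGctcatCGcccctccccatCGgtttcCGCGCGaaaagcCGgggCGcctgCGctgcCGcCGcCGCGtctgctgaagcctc
UHRF2: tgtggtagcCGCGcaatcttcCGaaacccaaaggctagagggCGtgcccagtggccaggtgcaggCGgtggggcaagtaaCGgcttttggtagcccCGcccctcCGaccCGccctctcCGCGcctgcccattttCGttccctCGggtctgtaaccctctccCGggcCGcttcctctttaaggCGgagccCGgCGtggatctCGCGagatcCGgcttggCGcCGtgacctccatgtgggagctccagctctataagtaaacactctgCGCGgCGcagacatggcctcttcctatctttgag
TDG: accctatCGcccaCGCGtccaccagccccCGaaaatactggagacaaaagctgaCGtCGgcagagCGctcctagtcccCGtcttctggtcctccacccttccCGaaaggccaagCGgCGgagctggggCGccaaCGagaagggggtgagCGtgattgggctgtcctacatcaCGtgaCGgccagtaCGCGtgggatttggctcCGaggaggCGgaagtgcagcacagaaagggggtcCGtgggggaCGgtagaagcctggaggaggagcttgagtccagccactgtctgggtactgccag

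The DNMT1 window holds 30 CpG sites, the UHRF2 window 26 and the TDG window 22. The median over all 35116 promoter windows in the RefSeq table is 14, so all 3 lie above it. The 1 window listed for DNMT3B starts 17467 bases inside the RefSeq gene and is not read as the promoter of the DNMT3B entry measured here. Of the 3 UHRF1 windows the poorest has 36 CpG sites and the richest 46, the TET1 windows have 6 to 11, the TET2 windows 13 and 35, the TET3 windows 33 and 45, and the 6 DNMT3A windows 18 to 46. Some of these also lie inside their gene, up to 90459 bases from its outermost start in DNMT3A. The E2F motif, searched on both strands as TTTCCCGC, TTTCGCGC, TTTGCCGC or TTTGGCGC, is the binding motif of a factor family that drives S phase genes. It was found in the DNMT1 window and in 2 of the 3 UHRF1 windows, the 2 members that copy methylation behind the replication fork, and in no window of the other members. These are 3 of the 20 member windows (15.0%), against 3.31% of all windows. A GC box (GGGCGG, both strands) was found in 60.0% of member windows and 45.0% of all windows. Those member windows belong to DNMT3A, UHRF1, UHRF2, TET2 and TET3, and the E2F windows to DNMT1 and UHRF1. A CCAAT box (CCAAT, both strands) was found in 35.0% of member windows and 34.6% of all windows. The E2F and GC box letters each contain a CpG. Member windows had a median of 26 CpG sites and 69.0% GC, against 14 and 58.7% over all windows. The part of this composition in the motif shares was not tested. Some windows of DNMT3A and of UHRF1 overlap and can hold the same match. The shares therefore count windows, not genes or independent promoters. Which start a gene used in these cells was not measured, and a motif match is a description of the sequence.

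The authors' deposited table marks genes under the headings SOM expression and SOM DNA methylation, headings that the sources used here do not explain. None of the 10 members carries the methylation mark, which is on 14.1% of all entries, and 1 of 10, TET3, carries the expression mark, which is on 12.8% of all entries. Of 73 other genes of the pathway and of S phase, described further on, 10 carry the methylation mark (13.7%), among them USP7, which stabilises DNMT1, and the reader MBD1.

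Facts of the whole series bear on these values as follows. The commonest ratio between low values of different groups, taken as that of 1 fragment, was 0.757 for treated over control (88 of 12366 entries) and 1.53 for recovery over control (97 of 12095). Relative to control, that puts the number of fragments at 1.32 times in treated cells and at 0.652 times in recovery. The 10 highest entries held 67.2%, 69.5% and 67.2% of the summed FPKM in treated, recovery and control cells. Of 10 genes listed for HEK 293T, 8, 6 and 7 were at 1 FPKM or more in treated, recovery and control cells and 1 was called higher in treated cells in the authors' deposited table, the neurofilament gene NEFM (4.79, 0.0924 and 0 FPKM, q = 0.0147). CITED1 of that list was at 63.6, 32.4 and 8.19 FPKM in the same order, and INA at 3.79, 0.562 and 0.244 FPKM. Others went the other way: vimentin (VIM) was at 181, 246 and 316 FPKM, EYA1 at 1.58, 3.09 and 3.77 FPKM and LHX1 at 0.390, 0.966 and 1.83 FPKM. The kidney gene PAX2 was listed at 0 in recovery and control. For 8 genes of that list a ratio of treated to control could be taken, with a median log2 ratio of -0.20. By size 2 of these 8 were at least 1.5-fold higher, CITED1 and INA, and 3 at least 1.5-fold lower, VIM, EYA1 and LHX1. NEFL, CDH2 and SALL1 lay within 1.5-fold of control. Markers of blood summed to 6.02, 1.09 and 0.317 FPKM in treated, recovery and control cells, and those of endothelium to 2.24, 0.758 and 0.0621 FPKM. CD3E, HBB, HBA1 and CDH5 were at 0 in every group. Epithelial markers summed to 520, 269 and 263 FPKM, nearly all of it KRT18 and KRT19, and fibroblast markers to 6.99, 12.8 and 10.3 FPKM. Their part in the members' values was not tested.

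The first question is how the methylation machinery stood in cells that still had the drug. No member passed the authors' threshold: of the 9 members with a q under 1 (taken as tested), 0 were called higher and 0 lower at q under 0.05 in the authors' deposited table, where q is a p-value adjusted for multiple testing. Over all 11256 such entries 1.08% were called higher and 0.275% lower. With shares this small, a count of 0 among 9 members is no result about the members. The authors' test called only large differences. Among entries above 0 in both groups the smallest called difference was 3.10-fold higher (HMGB3) and 3.09-fold lower (PHGDH) in treated cells, and the largest among the members was 1.83-fold. Of 6792 entries with a control value in the members' range (4.70 to 43.5 FPKM), 890 were at least as far below control as UHRF2, and 3 of these were called. The q-values therefore do not show that the members stayed level.

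By size alone, 2 of 9 members were at least 1.5-fold higher in treated than in control cells, DNMT3A and DNMT3B, and 1 was at least 1.5-fold lower, UHRF2. Of 11831 entries with a mean of 0.5 FPKM or more, 22.3% were higher and 22.3% lower by that rule, so the members' shares are close to the background. The members' median log2 ratio was 0.08, beside -0.02 over all entries.

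**Figure D1:**
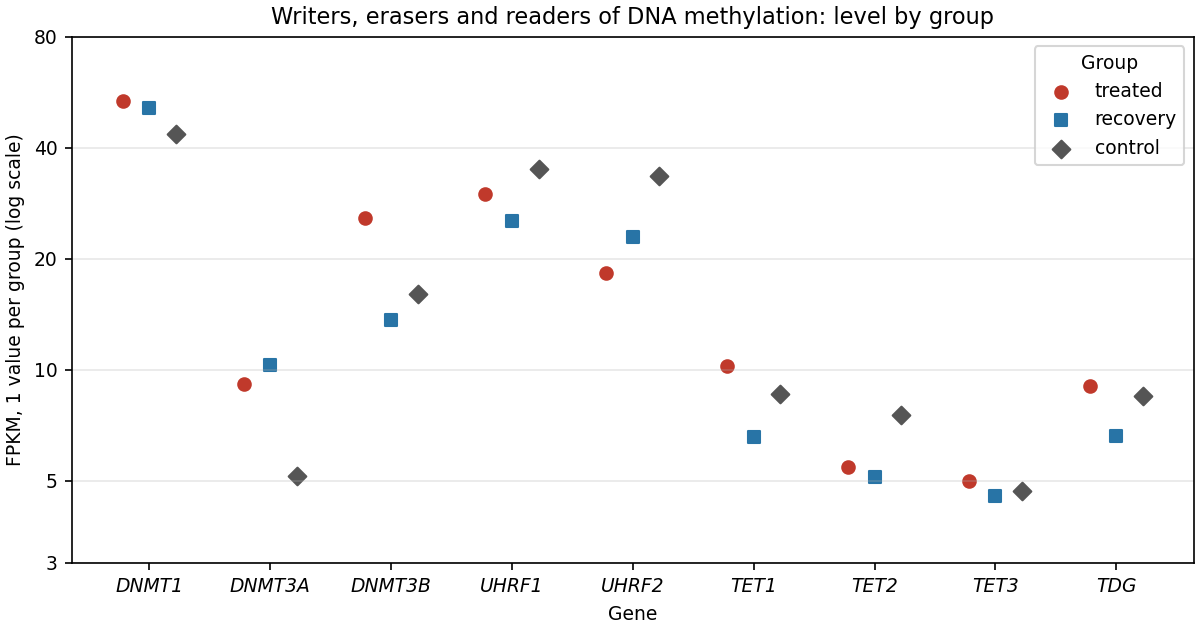
FPKM of 9 members (log axis) in treated, recovery and control cells, 1 deposited value per group and no error bar because single libraries have no value. DNMT1 was the highest gene in each group, DNMT3A had its lowest value in control (5.16 FPKM), and UHRF2 its highest there (33.5 FPKM); DNMT3L, at or near 0, is not drawn.

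Among the maintenance genes, DNMT1 (NM_001130823, hg19 chromosome 19, 10244022 to 10305755) was at 53.5 FPKM in treated, 51.4 FPKM in recovery and 43.5 FPKM in control cells. These are values of whole cultures, in which less RNA per cell and fewer cells with the RNA cannot be told apart. DNMT1 was the highest member in every group, above 93.5%, 93.2% and 91.6% of all entries. Its value was 1.23-fold higher in treated and 1.18-fold higher in recovery than in control cells (q = 0.978 and 0.989 in the authors' deposited table), and 32.9% of all entries lay at least as far above control in treated cells. UHRF1 (NM_001048201, chromosome 19, 4909510 to 4962165) was at 29.9 FPKM in treated, 25.4 FPKM in recovery and 35.0 FPKM in control cells. Both exposed groups were thus below control, by a log2 ratio of -0.23 in treated cells (q = 0.992 in the authors' deposited table) and -0.46 in recovery (q = 0.939). DNMT1 and UHRF1, partners in the same step, lay on opposite sides of control, except that DNMT1 in recovery was at a log2 ratio of -0.08 when groups were rescaled without the 10 highest entries. The FPKM of UHRF1 was 0.560 times that of DNMT1 in treated cells, 0.494 times in recovery and 0.806 times in control cells.

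UHRF2 (NM_152896, chromosome 9, 6413151 to 6507051) was the member farthest below control in treated cells. It was at 18.3 FPKM in treated, 23.0 FPKM in recovery and 33.5 FPKM in control cells, so recovery lay between the others as deposited. When groups were rescaled without the 10 highest entries, the log2 ratio to control was -0.76 in treated cells and -0.87 in recovery, so that recovery was the lower. The treated value was 1.83-fold lower than control (log2 ratio -0.88, q = 0.807 in the authors' deposited table, the lowest q of any member). Still, 1102 of the 11256 entries with a q under 1 had a lower one, and 13.6% of all entries were at least as far below control. In recovery the value was 1.46-fold lower than control (q = 0.939 in the authors' deposited table). UHRF2 stood at 0.610 times the FPKM of UHRF1 in treated cells, 0.905 times in recovery and 0.957 times in control cells. The 2 relatives were therefore nearly equal in control and recovery cells and unequal in treated cells, a ratio taken within each group that no single scaling factor per group can change.

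Among the de novo methyltransferases, DNMT3A (NM_022552, chromosome 2, 25455830 to 25565459) was at 9.18 FPKM in treated, 10.3 FPKM in recovery and 5.16 FPKM in control cells. It was 1.78-fold higher in treated cells (log2 ratio 0.83, q = 0.934 in the authors' deposited table) and 2.00-fold higher in recovery (log2 ratio 1.00, q = 0.898) than in control. It was the member farthest above control in both comparisons, which share the control values. In treated cells 16.3% of all entries were at least as far above control, and in recovery 12.7%. Of the entries with a control value in the members' range, the shares were 7.61% of 6792 in treated cells and 4.58% of 6784 in recovery. That range runs from 4.70 to 43.5 FPKM, and DNMT3A lies near its lower end. By the same measure, the treated shares were 11.0% for DNMT3B above control and 13.1% for UHRF2 below it.

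DNMT3B (NM_001207055, chromosome 20, 31350191 to 31397162) was at 25.8 FPKM in treated, 13.7 FPKM in recovery and 16.0 FPKM in control cells. The treated value was the highest of the 3 and 1.61-fold above control (log2 ratio 0.69, q = 0.915 in the authors' deposited table), while recovery was slightly below control (log2 ratio -0.23, q = 0.994). The FPKM of DNMT3A was 0.356 times that of DNMT3B in treated cells, 0.755 times in recovery and 0.322 times in control cells, so the levels of the pair were closest after recovery. DNMT3L (NM_013369, chromosome 21, 45666222 to 45682099) was at 0.373 FPKM in treated cells and listed at 0 in recovery and control cells. It had a q of 1 in both comparisons of the authors' deposited table, and no fold is given against a value of 0. It failed the filter of a mean of 0.5 FPKM and is left out of the counts over 9 members.

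Summed over DNMT1, DNMT3A and DNMT3B, the level was 88.5 FPKM in treated, 75.3 FPKM in recovery and 64.7 FPKM in control cells. DNMT1 made up 60.5% of that sum in treated, 68.2% in recovery and 67.2% in control cells. The share of DNMT3B was 29.1%, 18.1% and 24.8% in the same order of groups, and that of DNMT3A 10.4%, 13.7% and 7.99%.

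**Figure D2:**
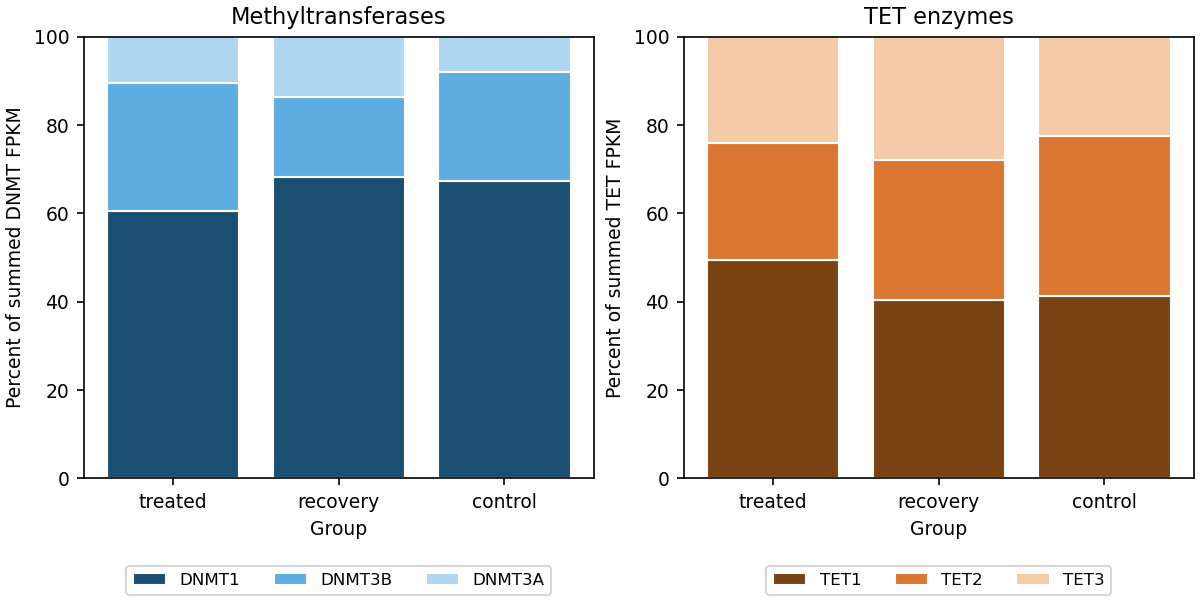
Share of each gene in the summed FPKM of DNMT1, DNMT3B and DNMT3A (left) and of TET1, TET2 and TET3 (right), in percent, for the treated, recovery and control group values. DNMT3B has its largest share in treated cells (29.1%) and DNMT3A in recovery (13.7%), while TET1 has 49.5% of the TET sum in treated cells and 41.2% in control.

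The TET genes lay between 4.54 and 10.2 FPKM in every group. TET1 (NM_030625, chromosome 10, 70320117 to 70454239) was at 10.2 FPKM in treated, 6.56 FPKM in recovery and 8.58 FPKM in control cells, so treated cells were above and recovery below control. Against control its ratio was 1.19 in treated cells (q = 0.99 in the authors' deposited table) and 0.765 in recovery (q = 0.963). TET2 (NM_001127208, chromosome 4, 106067032 to 106200960) was at 5.45 FPKM in treated, 5.14 FPKM in recovery and 7.55 FPKM in control cells. Both exposed groups were below control, at a ratio of 0.722 in treated cells (q = 0.944 in the authors' deposited table) and 0.681 in recovery (q = 0.939). TET3 (NM_001287491, chromosome 2, 74213531 to 74335302) varied least, with 4.98 FPKM in treated, 4.54 FPKM in recovery and 4.70 FPKM in control cells.

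The TET sum was 20.7 FPKM in treated, 16.2 FPKM in recovery and 20.8 FPKM in control cells. TET1 held 49.5%, 40.4% and 41.2% of it in treated, recovery and control cells, TET2 26.4%, 31.6% and 36.2%, and TET3 24.1%, 28.0% and 22.6%. The summed methyltransferase level was 4.28 times the TET sum in treated cells, 4.64 times in recovery and 3.10 times in control cells. TDG (NM_003211, chromosome 12, 104359593 to 104382656) was at 9.02 FPKM in treated, 6.62 FPKM in recovery and 8.52 FPKM in control cells, with a log2 ratio to control of 0.08 in treated cells and -0.36 in recovery (q = 0.998 and 0.99 in the authors' deposited table).

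In control cells the order of levels was DNMT1, UHRF1, UHRF2, DNMT3B, TET1, TDG, TET2, DNMT3A, TET3 and DNMT3L. Neighbours such as UHRF1 and UHRF2 (35.0 and 33.5 FPKM) or TET1 and TDG (8.58 and 8.52 FPKM) lie so close that their order has no support without a replicate spread. In treated cells DNMT3B stood above UHRF2, and DNMT3A above TET2.

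The next question is how the same genes stood after 30 days without the drug. Of the 9 members with a q under 1, 0 were called higher and 0 lower in recovery than in control in the authors' deposited table, against 0.895% and 0.447% of 11174 such entries. The lowest member q was 0.898, for DNMT3A. By size, 1 of 9 members, DNMT3A, was at least 1.5-fold higher and 0 were at least 1.5-fold lower, beside 21.0% and 19.0% of 11714 entries. Past 1.5-fold in either direction there were 1 member as deposited, 2 with quantile scaling and 6 when rescaled without the 10 highest entries. That rescaling moves the median log2 ratio of all entries with a mean of 5 FPKM or more from -0.04 to -0.36. No share of all entries is given under these scalings, so the counts of 2 and 6 are no result about the members. Of the 9 members, 7 were below control and 2 above (DNMT3A, and DNMT1 except under the rescaling without the 10 highest entries). Over all 11714 entries 48.4% were above control. The members' median log2 ratio was -0.36, beside -0.02 over all entries. The members below control were DNMT3B, UHRF1, UHRF2, TDG and the 3 TET genes, at log2 ratios between -0.55 and -0.05. The recovery value is that of 1 library, so nothing in it shows how recovered cultures differ from each other.

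**Figure D3:**
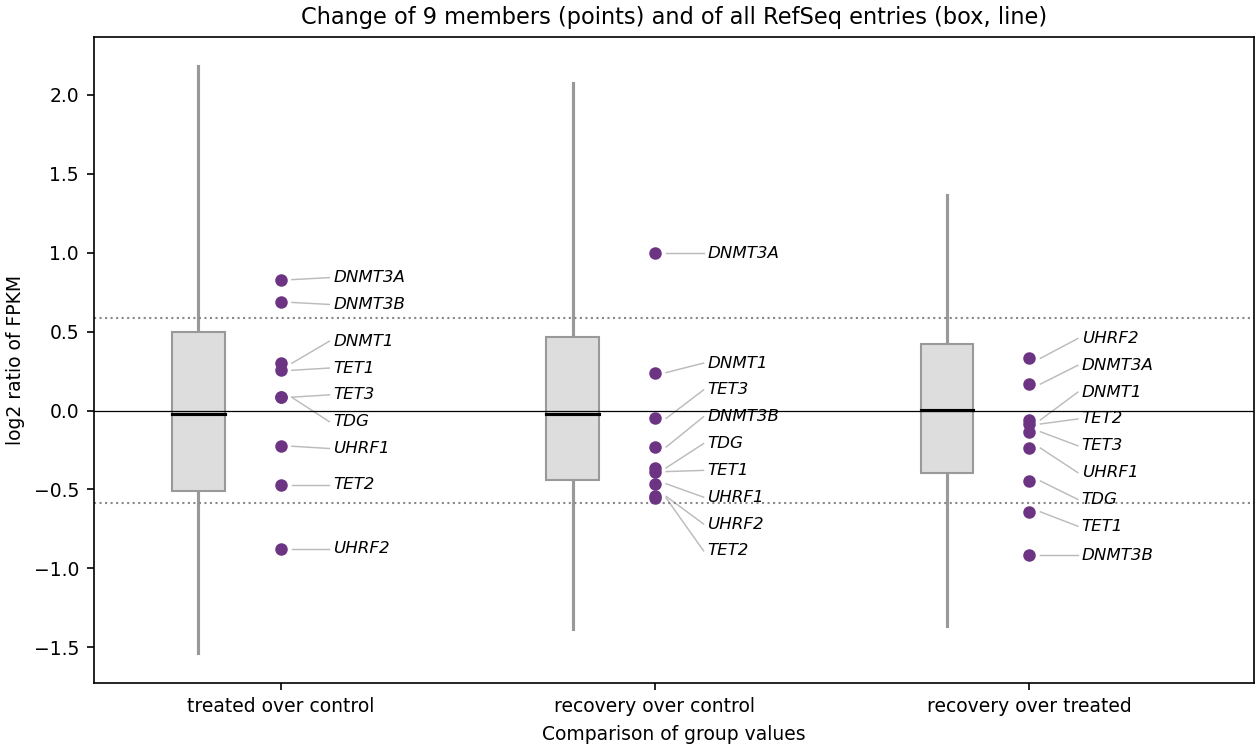
Log2 ratios of FPKM for 9 members (labelled points) in treated over control, recovery over control and recovery over treated, beside all RefSeq entries with a mean of 0.5 FPKM or more (box from the 25th to the 75th percentile with the median line, thin line from the 5th to the 95th). Dotted lines mark 1.5-fold; DNMT3A (0.83 and 1.00) and UHRF2 (-0.88) lie farthest from control, and the 2 comparisons with control share the control values.

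Set directly against treated cells, recovery cells had 0 of 9 members at least 1.5-fold higher and 2 at least 1.5-fold lower, DNMT3B and TET1, beside 18.3% and 17.4% of 12232 entries. The rescaling without the 10 highest entries put 4 members past 1.5-fold. No share of all entries is given under that rescaling, so the count of 4 is no result about the members. The authors give no q for this comparison. DNMT3B was 1.89-fold lower in recovery than in treated cells (log2 ratio -0.92), and 9.73% of all entries lay at least as far down. TET1 was 1.56-fold lower (log2 ratio -0.64). UHRF2 was 1.26-fold and DNMT3A 1.12-fold higher in recovery than in treated cells, and under that rescaling both were lower (log2 ratios -0.11 and -0.27). DNMT1, TET2 and TET3 had log2 ratios between -0.13 and -0.06. Of the 3 members past 1.5-fold in treated cells, DNMT3B and UHRF2 were nearer to control after recovery as deposited and DNMT3A was not. Under that rescaling UHRF2 was farther from control in recovery, and DNMT3A was nearer (log2 ratio 0.67 in recovery and 0.95 in treated cells), while DNMT3B was nearer by either scaling.

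The other genes of the pathway were described from 6 lists, and 73 of their 87 genes besides the members have an entry. Of these 73 genes 71 had a q under 1 in each comparison, and 0 were called in treated cells and 0 in recovery in the authors' deposited table. Beside the shares called over all entries (1.08% higher and 0.275% lower in treated cells, 0.895% and 0.447% in recovery), a count of 0 is no result about these genes. The lowest q was 0.355, for the proliferation marker MKI67 in treated cells. For counts of these lists by size, 22.3% of all entries were at least 1.5-fold higher and 22.3% lower in treated cells, and 21.0% and 19.0% in recovery. Among partners of DNMT1 at the replication fork, 13 of 15 genes have an entry, with a median log2 ratio of -0.04 in treated cells and 0.02 in recovery. By size 2 of 13 were higher and 2 lower in treated cells, and 2 higher and 1 lower in recovery. USP7, a deubiquitinase that binds DNMT1 and UHRF1, was at 80.7 FPKM in treated, 53.3 FPKM in recovery and 38.6 FPKM in control cells (q = 0.464 and 0.939 in the authors' deposited table). The H3K9 methyltransferase gene EHMT2, at 15.7, 19.4 and 9.70 FPKM in treated, recovery and control cells, had its lowest value in control. CDCA7, which recruits the remodeller HELLS, was at 26.8, 43.5 and 45.8 FPKM in the same order, and the deacetylase gene HDAC1 at 105, 119 and 164 FPKM.

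Among partners of de novo methylation 11 of 12 genes have an entry, and the median log2 ratio was 0.06 in treated cells and -0.16 in recovery. By size 1 of 10 was higher and 2 lower in treated cells, and 0 higher and 4 lower in recovery. SETD2, which lays down the H3K36 mark that DNMT3B reads, was at 21.1 FPKM in treated, 13.7 FPKM in recovery and 12.0 FPKM in control cells. A link between its values and those of DNMT3B was not tested. KDM1B, an H3K4 demethylase needed for oocyte methylation in the mouse, was at 5.15, 4.33 and 11.2 FPKM in treated, recovery and control cells, and the histone chaperone gene DAXX at 26.1, 34.0 and 56.2 FPKM. TRIM28, a corepressor of zinc finger proteins, was at 118, 136 and 91.6 FPKM. Of 8 methyl-CpG readers 6 have an entry, with a median log2 ratio of 0.18 in treated cells and -0.07 in recovery. By size 1 of 6 was higher and 0 lower in treated cells, and 1 higher and 2 lower in recovery. MBD1 was at 17.5, 13.5 and 11.9 FPKM in treated, recovery and control cells. The readers MBD2 (9.44, 7.74 and 11.7 FPKM) and ZBTB38 (9.95, 10.2 and 12.7 FPKM) were below control in both exposed groups.

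In the base excision repair and TET cofactor list, 18 of 20 genes have an entry, TDG included. By size 1 of 18 was higher and 6 lower in treated cells, with a median log2 ratio of -0.06. In recovery 2 were higher and 4 lower, and the median was 0.18. NEIL1, a glycosylase that can take over abasic sites from TDG, was at 3.38 FPKM in treated, 9.24 FPKM in recovery and 14.3 FPKM in control cells (q = 0.732 in treated cells, in the authors' deposited table). GADD45A, a damage-induced gene, was at 23.6, 53.0 and 42.0 FPKM in treated, recovery and control cells, PARP1 at 151, 131 and 111 FPKM, and POLB, the repair polymerase, at 24.0, 21.8 and 17.0 FPKM. GADD45G, named after its values were seen because it stood far from the other genes, was at 5.19, 5.25 and 0.214 FPKM (q = 0.939 in both comparisons of the authors' deposited table). Its control value is low and may rest on very few fragments, so the precision of its distance from control is unknown.

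In the S-adenosylmethionine cycle, which supplies the methyl group, 9 of 12 genes have an entry and the median log2 ratios were 0.10 in treated cells and 0.03 in recovery. By size 0 of 8 were higher and 1 lower in both comparisons with control. AHCY, which removes the product that inhibits methyltransferases, was at 213 FPKM in treated, 224 FPKM in recovery and 215 FPKM in control cells. SHMT2, a mitochondrial enzyme of one-carbon metabolism, was at 85.5, 138 and 146 FPKM in the same order. MTRR was at 29.0, 26.5 and 23.2 FPKM and AHCYL2 at 8.82, 5.25 and 7.69 FPKM.

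DNMT1 and UHRF1 are known to follow the cell cycle, so 17 of 22 S phase and proliferation genes with an entry were set beside them. Their median log2 ratio was -0.03 in treated cells and -0.19 in recovery. By size 2 of 17 were higher and 0 lower in treated cells, and 0 higher and 1 lower in recovery. MKI67 was at 75.2 FPKM in treated, 22.2 FPKM in recovery and 32.8 FPKM in control cells, and the G1 cyclin gene CCNE1 at 18.5, 15.0 and 11.3 FPKM. CDK1 (115, 123 and 171 FPKM in treated, recovery and control cells) and the origin licensing gene CDT1 (17.4, 16.5 and 26.0 FPKM) were below control in both exposed groups.

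**Figure D4:**
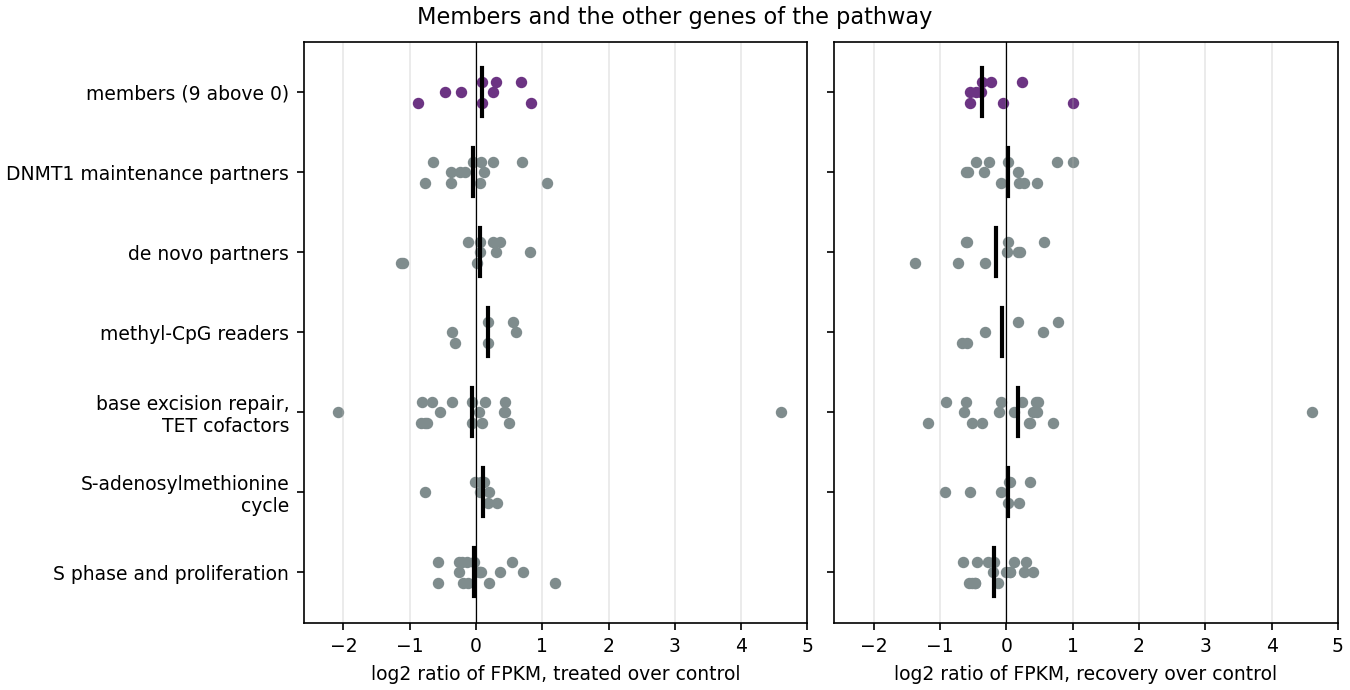
Log2 ratios of FPKM in treated over control (left) and recovery over control (right) for the members (purple) and the genes of 6 other lists (grey), with a mean of 0.5 FPKM or more, 1 point per gene and a bar at each median. Vertical scatter within a row has no meaning. The point near 5 is GADD45G, whose low control value may rest on very few fragments. List medians lie between -0.06 and 0.18 in treated cells.

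Of the 69 genes of these lists with a mean of 5 FPKM or more and a ratio in both comparisons, the 5 whose pair of log2 ratios lay nearest to that of DNMT1 were MTRR, KDM1A, PARP1, LIG3 and APEX1. MTRR was nearest, at a distance of 0.05 on the log2 scale, and APEX1 the fifth, at 0.20. The pattern rests on 3 group values, and 496 of 8505 entries lay as near to DNMT1 as APEX1 did.

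The second table, of long noncoding RNA transcripts, was searched for entries within 10000 bases of a member. There were 3, each beside a different gene. One, TCONS_00002934 (hg19 chromosome 2, 74212259 to 74213470), ends 60 bases before the first base of the TET3 entry. It was at 224 FPKM in recovery, 17.2 FPKM in treated and 21.0 FPKM in control cells, high in the recovery library alone (q = 0.563 for recovery in the authors' deposited table). TET3 itself, at 4.54 FPKM in recovery, did not stand out with it. The TCONS_00002934 entry had no q under 1 in treated cells. Fragment totals are not given, so the precision of its values is unknown. The entries near UHRF2 and TET2 were listed at 0 in every group. Of 6 RefSeq neighbours within the same distance, UQCC6 and GLT8D2 lie on either side of TDG. UQCC6, 8599 bases away, was at 4.79 FPKM in treated, 3.80 FPKM in recovery and 0.248 FPKM in control cells (q = 0.939 in both comparisons of the authors' deposited table). GLT8D2, 108 bases away, was at 2.42 FPKM in treated, 0.339 FPKM in recovery and 2.76 FPKM in control cells. ICOSLG, beside DNMT3L, was at 1.78 FPKM in treated, 1.83 FPKM in recovery and 0.191 FPKM in control cells, and ARRDC5, beside UHRF1, was listed at 0 in each group. The low values of UQCC6 and ICOSLG in control and of GLT8D2 in recovery may rest on very few fragments. KDM4B, also beside UHRF1, was at 7.16, 5.73 and 7.71 FPKM in treated, recovery and control cells, and DGUOK, beside TET3, at 57.9, 87.2 and 67.3 FPKM.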

How the data were processed

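The 5 HEK 293T libraries were grouped by their titles. Per the labels' protocols, total RNA was depleted of ribosomal RNA and made into directional libraries; per the submitters' processing notes, Cufflinks and Cuffdiff were used, with hg19 and mm9 named as builds. The human coordinates are taken as hg19 and printed 1-based. No aligner, annotation release or version is given in the sources used here. Per the file headers, the authors deposited FPKM values, 1 per group, and a q-value for treated and for recovery against control. Values of single libraries were not used, so the number of value columns without a group was 0 and the planned test on libraries gave way to the authors' calls at q under 0.05.

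Entries were named through the RefSeq gene table (19665 of 20220 matched), leaving out 1 RefSeq and 2 lncRNA entries with shifted cells. Ratios carry no pseudocount, and counts by size used entries with a mean of 0.5 FPKM or more and above 0 in both groups. Total fragments are not given, so no counting interval could be computed; separate cultures are not stated for the libraries. The estimate of the value of 1 fragment and the ratios were tested on simulated data. The simulation drew whole counts for 1 library per group, with a fragment ratio below 1. It therefore does not cover group values over 2 libraries or the ratio found for recovery. Members and lists were chosen with earlier results of these data known. All 10 members are named; of each list, the 2 genes farthest up and the 2 farthest down in treated cells, with a mean of 5 FPKM or more, and GADD45G as said in the text; 1 gene that the rule names is not reported here. Python 3.11.15, numpy 2.4.6, pandas 2.3.3 and matplotlib 3.10.9 were used.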

Additional observations from a re-analysis of the deposited data

How the results depend on the processing

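The counts of 0 called members held in both comparisons with control at q under 0.10 and under 0.25 of the authors' deposited table. The number of members past 1.5-fold in treated against control was 3 under every scaling and pseudocount tried, and 0 at 2-fold. For recovery against control it was 1 as deposited, 0 at 2-fold, 2 with quantile scaling and 6 when groups were rescaled without the 10 highest entries. For recovery against treated it was 2 as deposited, 0 at 2-fold, 4 with that rescaling and 1 with FPKM + 1. No share of all entries is given under these settings, so the changed counts are no result about the members. That rescaling moves the median log2 ratio of all entries with a mean of 5 FPKM or more in recovery over control to -0.36, against -0.04 as deposited, by its construction. Under it DNMT1 in recovery over control was at -0.08 in place of 0.24, still above that median, and in recovery over treated DNMT3A was at -0.27 and UHRF2 at -0.11. Of 135 log2 ratios recomputed for the members, 4 changed sign, these 3 and TET3 in treated over control (-0.0004 with quantile scaling), and 9 crossed the 1.5-fold line. Ratios between members within a group cannot move under a single scaling factor per group; under quantile scaling they moved by less than 1.5 times, a check added after the data were seen. In entries with a mean of 5 FPKM or more, also added then, 35.7%, 30.0% and 25.8% were past 1.5-fold in treated against control, recovery against control and recovery against treated. No paired analysis was possible because the replicates were deposited as 1 value per group, and for the same reason no replicate could be left out. With no fragment totals, the precision of low values such as DNMT3L is unknown.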
